A study of Mus musculus with 8 samples.

Results

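The collagen genes of the mouse were followed in RNA-seq libraries of the endometrium, the inner lining of the uterus. Members were the genes of the count table whose symbol is Col, a number, the letter a and a number, and 44 of the 52325 genes in the table met this rule. They comprise 11 fibrillar collagens, 9 FACIT collagens (fibril-associated collagens with interrupted triple helices), 8 collagens of basement membranes, 6 type VI collagens, 4 transmembrane collagens, the anchoring fibril collagen Col7a1 and 5 others. The endometrium was cut by laser capture from frozen sections of the uterus of 4 WT and 4 Thra1PV/+ female mice, all in metestrus. Thra1PV/+ mice carry, in every cell, 1 WT allele of Thra and 1 allele with the PV mutation, a change at the C-terminal end of thyroid hormone receptor α1 that makes it a dominant negative receptor. No other allele or treatment is given for these mice, and their age and strain are not given in the sources used here. The labels name the tissue only as uterus, and the capture of endometrium is taken from the study's methods. The methods give 4 mice a genotype, while the labels do not say which animal a library is from, so that the p-values measure the spread between these 8 libraries. The question here is whether collagen transcripts differed between the genotypes. The study reported fibrosis of the mutant uterus by trichrome staining, and higher Col6a5, Col7a1 and Col17a1 there by qPCR and western blot. By histology it also reported squamous metaplasia of the mutant endometrium, where stratified squamous cells took the place of columnar cells in patches.

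Collagens are the main structural proteins of the extracellular matrix. Their chains carry a glycine in each repeated Gly-X-Y unit and wind around each other in a triple helix. Fibrillar collagens, types I, III and V among them, form the banded fibrils made by stromal fibroblasts and deposited in excess in fibrosis. Type IV collagen forms the sheet of the basement membrane under epithelia and around vessels and muscle, FACIT collagens decorate fibrils, and type VI collagen forms beaded filaments near cells. Col17a1 encodes a transmembrane collagen of the hemidesmosome, the junction that fixes basal cells of stratified epithelium to the basement membrane. Col7a1 encodes the chain of the anchoring fibrils, which tie that basement membrane to the stroma below. In the uterus, the stroma and the muscle wall hold most fibrillar collagen, and stratified squamous epithelium is normally found in the vagina and not in the endometrium.

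The repeat that the family shares is written in the genes themselves. A coding exon from the middle of the longest unbroken Gly-X-Y run is shown for Col1a1, for Col17a1 and Col6a5, which passed the test between genotypes, and for Col7a1. The sequences were read from GENCODE release M21 transcripts on GRCm38, they run 5′ to 3′ on the strand of the gene, and glycine codons of the repeat are in capitals. In the Col17a1 exon, the first and the last glycine codon are split by the exon boundary.
Col1a1 exon 31 of 51, chr11:94945500-94945598, plus strand: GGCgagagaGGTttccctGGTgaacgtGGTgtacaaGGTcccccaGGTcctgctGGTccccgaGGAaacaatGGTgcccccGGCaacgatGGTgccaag
Col17a1 exon 29 of 54, chr19:47662336-47662398, minus strand: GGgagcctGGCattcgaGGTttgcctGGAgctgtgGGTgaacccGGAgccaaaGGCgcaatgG
Col7a1 exon 106 of 118, chr9:108980207-108980260, plus strand: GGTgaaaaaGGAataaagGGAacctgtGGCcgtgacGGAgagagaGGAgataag
Col6a5 exon 16 of 41, chr9:105915139-105915183, minus strand: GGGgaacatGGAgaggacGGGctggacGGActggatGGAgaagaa

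Runs of at least 5 Gly-X-Y triplets were found in the coding sequence of all 44 genes. The longest unbroken run had 216 to 344 triplets in the fibrillar collagens, with 338 in Col1a1. It had 75 in Col7a1, 56 in Col17a1 and 37 in Col6a5. The classes also differed in the length of their exons. Of 510 fibrillar exons that lie inside such runs, 59.2% were exactly 54 bases long, and of 193 FACIT exons 54.9% were. The share was 6.35% of 63 exons in Col7a1 and 9.33% of 150 in the basement membrane genes. Over the whole family, 96.5% of 1102 such exons were a multiple of 9 bases long, which is 1 triplet. The runs took up the smallest share of the coding sequence in Col12a1, with 8.19% of its codons, and 11.8% in Col6a5, whose protein is mostly made of other domains.

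The libraries held between 48791883 and 59819099 estimated counts, and 39 of the 44 collagen genes passed the filter on low counts and were tested. Before the collagens are compared, the make-up of the libraries has to be described, because several collagens moved with it. The summed level of 8 endometrial stroma markers, in CPM (counts scaled to the library total, after TMM normalization), was 1715 CPM in Thra1PV/+ library 1 and 2096 and 2123 CPM in WT libraries 1 and 2. In the other 5 libraries it was between 333 and 790 CPM. The summed level of 8 simple epithelium markers was lowest in these 3 stroma-rich libraries, between 2207 and 3050 CPM, and was between 3974 and 5912 CPM in the others. WT library 1 stood apart by its smooth muscle markers, with 12986 CPM where the other WT libraries had 571 to 1142 CPM and the Thra1PV/+ libraries had 146 to 678 CPM. All 8 of these markers had a negative log2 fold change with an unadjusted p-value under 0.05, with a median of -3.73, and none was called. Without WT library 1 the median was -1.44 and 2 of the 8 had such a p-value. That library also had the most hemoglobin and Alas2 transcripts, with 179 CPM against at most 57.5 CPM elsewhere. Markers of stratified squamous epithelium summed to between 2232 and 3733 CPM in the Thra1PV/+ libraries and to between 1.16 and 42.3 CPM in the WT libraries. Of these 8 markers, 7 were tested and 6 were called, all higher in Thra1PV/+, and Sprr1b, with at most 2 counts in a library, was not tested. In bulk libraries, fewer cells of a type and less RNA per cell cannot be told apart.

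Between the genotypes, 2 of the 39 tested collagen genes passed the thresholds, and both were higher in Thra1PV/+ endometrium. They were Col17a1, by far the largest difference in the family, and Col6a5, a sparsely expressed type VI chain. The thresholds were a difference of at least 2-fold and an adjusted p-value of at most 0.1. The p-values are from the quasi-likelihood test of edgeR, adjusted by Benjamini-Hochberg over all 18174 tested genes. Of all tested genes 0.99% were called, and 0.924% were called higher in Thra1PV/+. No collagen gene was called lower, and the tested genes called lower made up 0.066% of the total. In 2 of 39 collagen genes, again Col17a1 and Col6a5, the 4 libraries of each genotype did not overlap, which was the case for 6.04% of all tested genes. In 3.55% of all tested genes every Thra1PV/+ library was the higher, as in both collagens, and in 2.49% the lower. At an unadjusted p-value under 0.05 there were 7 collagen genes, 4 higher and 3 lower, where 9.77% of all tested genes passed, 5.05% higher and 4.72% lower. DESeq2 called 4 collagen genes, which added Col7a1 (higher) and Col15a1 (lower), and it called 3.64% of the genes to which it gave an adjusted p-value. Of its 793 calls over all genes, 567 were higher in Thra1PV/+.

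**Figure D1:**
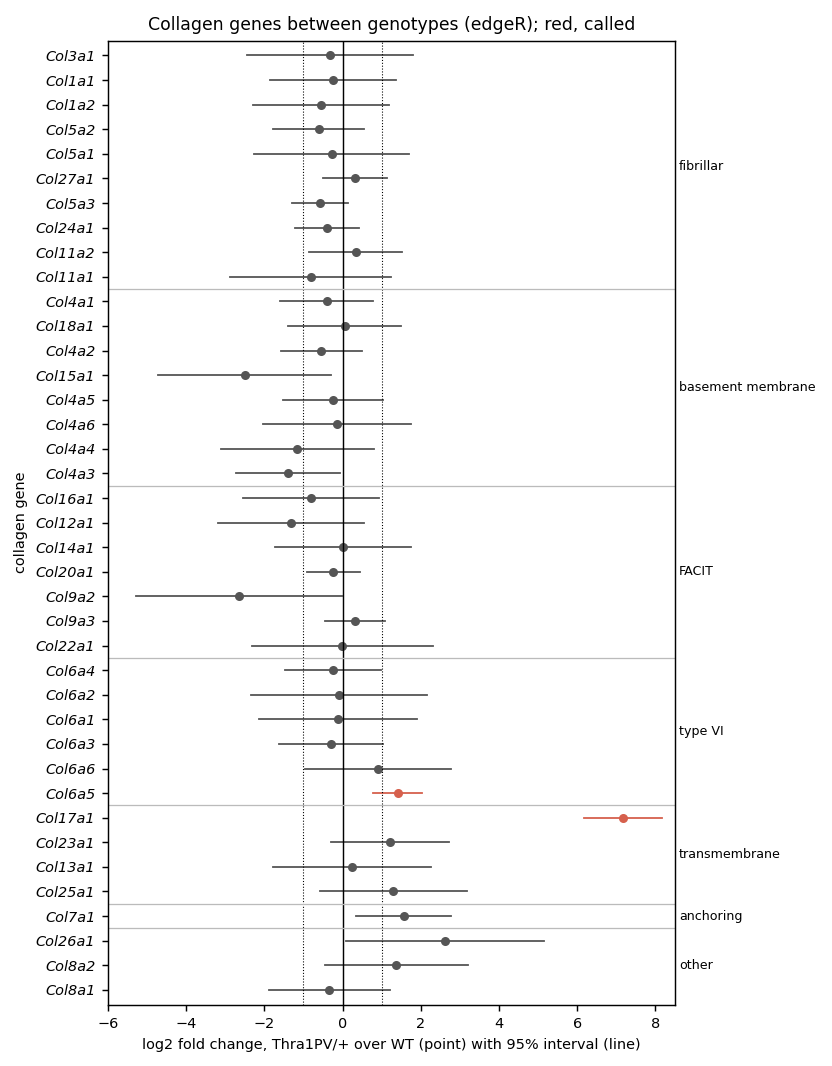
Log2 fold change of each tested collagen gene (horizontal axis, Thra1PV/+ over WT, points) with its 95% interval (lines) from edgeR, by class. Dotted lines mark 2-fold either way. Col17a1 at 7.17 and Col6a5 at 1.41 are the 2 called genes (red), and the intervals of 32 of the 39 genes include 0.

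The breadth of these intervals matters for reading the other 37 genes. The standard error of the log2 fold change had a median of 0.70 over the tested collagens and of 0.33 over all tested genes, and it was above the latter in 36 of the 39. Only for 1 gene, Col20a1, did the 95% interval stay within 2-fold in both directions. A collagen gene that did not pass the test is therefore not shown to be equal in the genotypes.

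Col17a1 (ENSMUSG00000025064.14, chromosome 19, 47646344 to 47692094, GRCm38, minus strand) had 167, 161, 221 and 162 CPM in Thra1PV/+ libraries 1 to 4. In WT libraries 1 to 4 it had 0.611, 1.34, 2.11 and 0.879 CPM. Every Thra1PV/+ library was far above every WT library, and the mutant libraries differed among themselves by only 1.38-fold. The means were 178 ± 29.0 CPM (SD, n = 4) and 1.23 ± 0.656 CPM (SD, n = 4), a log2 fold change of 7.17 (edgeR's adjusted p = 0.00113, standard error 0.44). It ranked second by p-value of the 18174 tested genes, and 14 genes had a larger log2 fold change. The call held in all 17 alternatives, with an adjusted p-value of at most 0.00975 where a library was left out. On the deposited TPM scale, which is per transcript length, Col17a1 rose from rank 38 of the 44 collagens in WT to rank 9 in Thra1PV/+ endometrium, with means of 0.261 and 40.2 TPM. The squamous markers above moved with it, and their part in its level was not tested.

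Col7a1 (ENSMUSG00000025650.12, chromosome 9, 108953586 to 108984875) had 67.4, 78.0, 58.0 and 46.0 CPM in the Thra1PV/+ libraries. In the WT libraries it had 10.6, 49.9, 12.7 and 11.1 CPM. WT library 2 lay within the range of the mutant libraries, and the other 3 WT libraries were well below all of them. The log2 fold change was 1.56 (standard error 0.53), and the gene did not pass the test (edgeR's adjusted p = 0.370, unadjusted p = 0.0178). That library decides the call: without WT library 2 the log2 fold change was 2.48 with an adjusted p-value of 0.00939. DESeq2 called the gene on all 8 libraries, with a log2 fold change of 1.60 and an adjusted p-value of 0.0787. The levels of Col7a1 in the 2 genotypes therefore differed far less than those of Col17a1. The log2 ratio of Col7a1 to Col17a1 was between -1.93 and -1.04 in Thra1PV/+ and between 2.57 and 5.18 in WT libraries. The exact permutation test, two-sided, gave p = 0.0286, the smallest that 70 arrangements allow. As Col17a1 was called by itself, this ratio largely restates its difference and is not a separate result.

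The partners of Col17a1 and Col7a1 in the hemidesmosome and in anchoring were not called. All 8 genes of this list were tested. The log2 fold change was positive in 7, with a median of 0.19, where the median of all tested genes was -0.05. Plec, which encodes the linker plectin, had 210, 279, 259 and 222 CPM in Thra1PV/+ and 152, 158, 196 and 174 CPM in WT libraries. These did not overlap, but the difference was small, with a log2 fold change of 0.51 (edgeR's adjusted p = 0.277, standard error 0.15). Itgb4, the integrin β4 chain of the hemidesmosome, had 74.4 to 80.0 CPM in Thra1PV/+ and 22.8 to 103 CPM in WT libraries. The adjusted p-value of Lamb3, a chain of laminin 332, was 0.789.

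**Figure D2:**
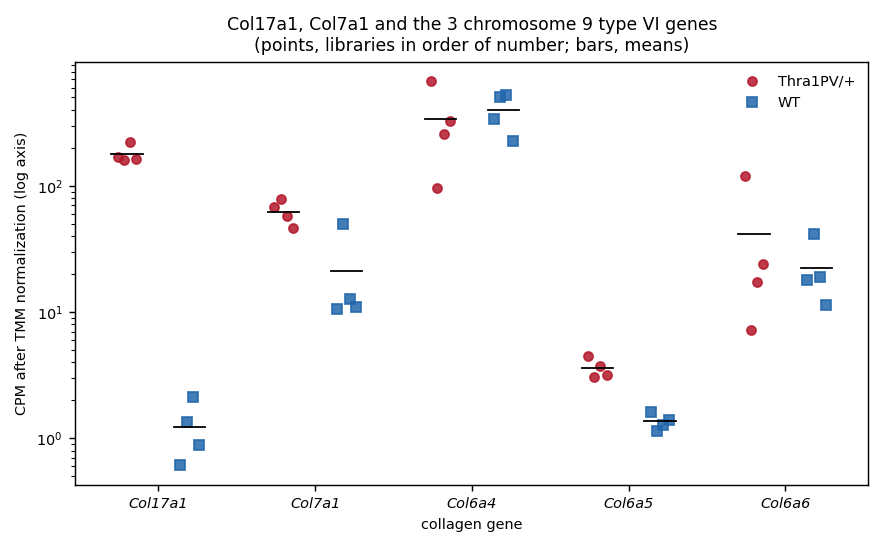
CPM after TMM normalization (vertical axis, logarithmic) of Col17a1, Col7a1 and the 3 neighbouring type VI genes in each library of Thra1PV/+ (circles) and WT (squares) mice, with bars at the means. Col17a1 and Col6a5 do not overlap between genotypes, WT library 2 of Col7a1 lies at 49.9 CPM among the mutant libraries, and Col6a4 and Col6a6 overlap widely.

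Among the 6 type VI collagens, Col6a5 was the only one called, and it was the one with the lowest level. Type VI collagen is built from the chains of Col6a1 and Col6a2 with a larger chain, that of Col6a3 or of Col6a4, Col6a5 or Col6a6. Col6a5 (ENSMUSG00000091345.9, chromosome 9, 105856078 to 105960643, minus strand) had 4.44, 3.06, 3.74 and 3.19 CPM in the Thra1PV/+ libraries. In the WT libraries it had 1.62, 1.14, 1.27 and 1.40 CPM. All mutant libraries were above all WT libraries, and within each genotype the libraries differed by less than 1.5-fold, at 1.45-fold and 1.43-fold. The log2 fold change was 1.41 (edgeR's adjusted p = 0.0807, standard error 0.27, 95% interval 0.79 to 2.03). Its counts were between 63 and 242 per library, and its mean deposited value was 0.29 TPM, rank 37 of 44. The call was close to the threshold. Without any one of the 8 libraries the adjusted p-value was between 0.103 and 0.270, so that the gene was called in none of these 8 fits, while the log2 fold change stayed between 1.34 and 1.54.

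Col6a5 lies between Col6a6 and Col6a4 on chromosome 9, on the same strand, with 27917 bases to the one and 28810 to the other. The neighbours overlapped between the genotypes. Col6a4 had 675, 95.4, 256 and 324 CPM in Thra1PV/+ and 337, 508, 528 and 228 CPM in WT libraries, with a log2 fold change of -0.24 (standard error 0.54). The levels of Col6a6 were 119, 7.22, 17.3 and 24.0 CPM in Thra1PV/+ and 18.0, 41.3, 18.9 and 11.4 CPM in WT libraries. In both genes, Thra1PV/+ library 1 was the highest library of its genotype.

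The abundant type VI chains varied widely between libraries of a genotype. Col6a2 had 1690 CPM in Thra1PV/+ library 1 but 75.4, 141 and 198 CPM in libraries 2 to 4. In WT libraries it had 739, 1012, 285 and 215 CPM. Library 1 of the mutants was thus 22.4 times as high as library 2, and the WT libraries lay between them. Between the genotypes it differed by -0.10 on the log2 scale, with a standard error of 0.99. For the whole class the log2 fold changes were between -0.30 and 1.41.

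No fibrillar collagen passed the test, in either direction. Of the 11 members, 10 were tested, 8 had a negative and 2 a positive log2 fold change, and the values ran from -0.81 to 0.33 with a median of -0.37. None had an unadjusted p-value under 0.05. Col3a1 was the most abundant collagen on the TPM scale, with means of 383 TPM in Thra1PV/+ and 380 TPM in WT endometrium. Its CPM values were 2225, 109, 260 and 326 in Thra1PV/+ libraries 1 to 4 and 1326, 1520, 431 and 382 in WT libraries 1 to 4. The Thra1PV/+ libraries included both the highest and the lowest of the 8. Its log2 fold change was -0.33 (edgeR's adjusted p = 0.950, standard error 0.93, 95% interval -2.44 to 1.79).

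Col1a1, one of the chains of type I collagen, gave the same picture. It had 1605, 151, 323 and 489 CPM in Thra1PV/+ and 958, 1232, 404 and 451 CPM in WT libraries. Thra1PV/+ library 1 was again the highest of the 8 and library 2 the lowest. With a log2 fold change of -0.25, its standard error was 0.70 and its 95% interval ran from -1.86 to 1.37. A 2-fold difference either way was therefore not excluded. Leaving out Thra1PV/+ library 1 moved the log2 fold change to -1.20, and leaving out library 2 of the mutants moved that of Col3a1 to 0.04.

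**Figure D3:**
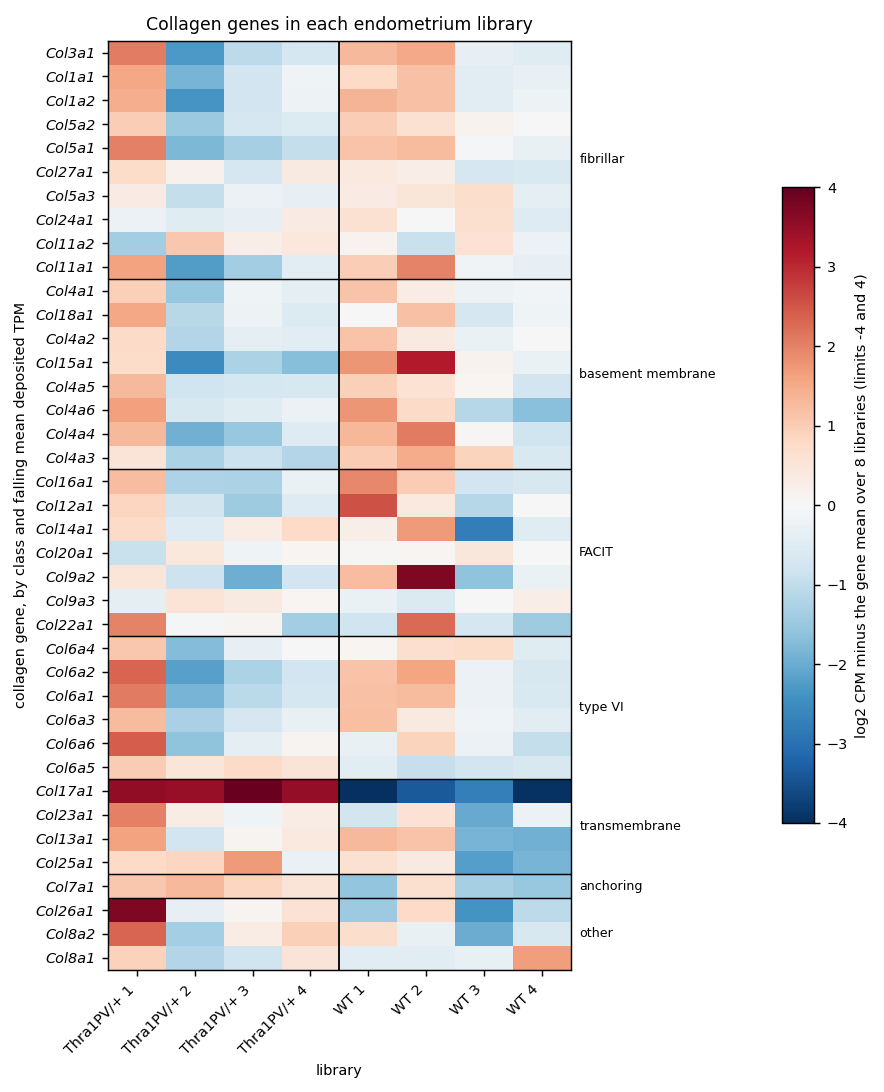
Log2 CPM of each of the 39 tested collagen genes (rows, by class) in each library (columns), as the difference from the gene's mean over the 8 libraries. Thra1PV/+ library 1 and WT libraries 1 and 2 are high and Thra1PV/+ library 2 is low in most fibrillar, basement membrane and type VI genes, and only the rows of Col17a1 and Col6a5 keep the genotypes apart without overlap.

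The order of the libraries was largely common to the family. Thra1PV/+ library 1 was the highest mutant library in 32 of 39 collagen genes, against 37.0% of all tested genes, and library 2 the lowest in 28 of 39, against 32.3%. Of the WT libraries, library 1 or 2 was the highest in 31 of 39 collagen genes, against 53.2% of all tested genes. Fibrillar collagens summed to 5519, 432, 961 and 1349 CPM in Thra1PV/+ and to 3812, 4106, 1358 and 1384 CPM in WT libraries. The 3 stroma-rich libraries were the 3 with the most fibrillar collagen, and the library with the lowest summed stroma markers, Thra1PV/+ library 2, had the least. Blood vessel endothelium markers summed to 244, 281 and 233 CPM in Thra1PV/+ library 1 and WT libraries 1 and 2, and to 73.1 to 136 CPM elsewhere. Pericyte markers summed to 296, 429 and 312 CPM in these libraries and to 55.9 to 172 CPM elsewhere. The parts of these cell types in the collagen levels were not tested. The ratio of the highest to the lowest mutant library had a median of 5.62-fold over the tested collagens and of 1.71-fold over the tested genes. In WT libraries the same ratio was 3.67-fold and 2.04-fold. All 8 stroma markers had a negative log2 fold change, with a median of -0.78, and none was called.

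**Figure D4:**
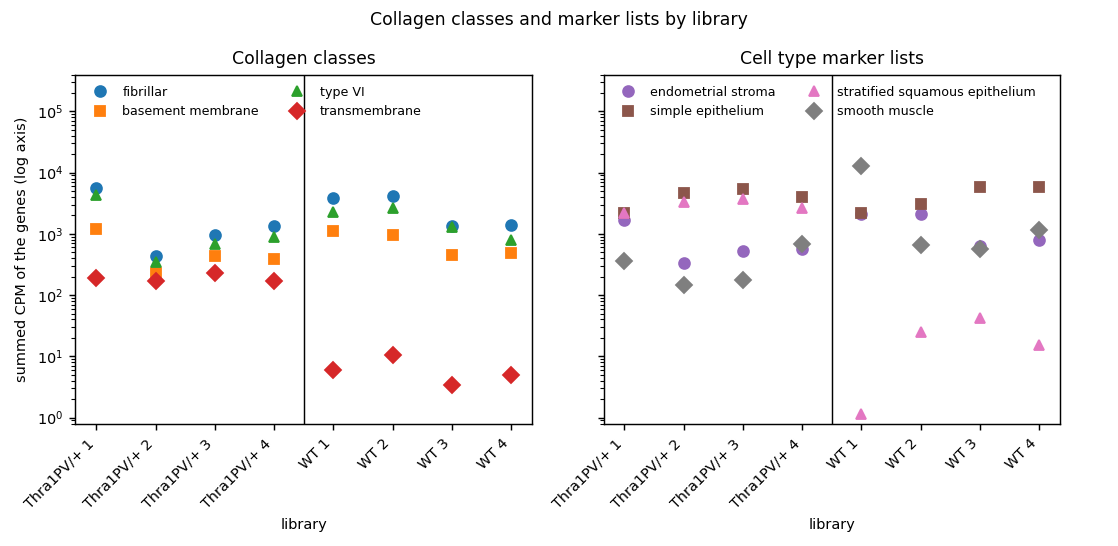
Summed CPM (vertical axis, logarithmic) of 4 collagen classes (left) and of 4 lists of cell type markers (right) in each of the 8 libraries. The fibrillar and type VI sums are highest where the stroma markers are highest, in Thra1PV/+ library 1 and WT libraries 1 and 2, while the transmembrane sum is 167 to 227 CPM in Thra1PV/+ and 3.42 to 10.4 CPM in WT libraries.

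A fit with the mean log2 CPM of the stroma markers as a covariate, chosen after the data were seen, was added for this reason. In it, the median standard error of the fibrillar collagens was 0.31 in place of 0.61. Over all tested genes it was 0.27 in place of 0.33. The median log2 fold change of the fibrillar collagens was -0.04 in place of -0.37. As all 8 stroma markers had a negative log2 fold change, the covariate and the genotype cannot be fully told apart. No fibrillar collagen was called in this fit. Col17a1 and Col6a5 stayed called, with log2 fold changes of 7.02 and 1.51. Col8a2 and Col26a1 were called in addition, both higher in Thra1PV/+. With the covariate 2.38% of all tested genes were called.

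Type I, III, V and XI fibrils are mixed, and type IV chains are made from paired genes, so that ratios of chains within a library were compared as well. A ratio does not depend on the scaling of the library. In all 10 pairs were compared, and only Col7a1 over Col17a1, given above, had a p-value under 0.05. That pair is neither of a mixed fibril nor of type IV, and its ratio largely restates the call of Col17a1. The Benjamini-Hochberg adjusted value over the 10 pairs was 0.286 for this pair. In 3 other pairs a single library decided whether the p-value was under 0.05. Without it they came to an exact permutation p-value of 0.0286, the smallest that 7 libraries allow. They were Col4a1 over Col4a2 without Thra1PV/+ library 2, Col6a1 over Col6a2 without Thra1PV/+ library 1 and Col12a1 over Col14a1 without WT library 2. Col1a1 and Col1a2, whose products form the type I molecule, kept within a narrow range of ratios. The log2 ratio was between -0.33 and 0.74 over the 8 libraries, although the log2 level of Col1a1 alone had an SD of 1.42 among mutant libraries. It averaged 0.39 ± 0.24 (SD, n = 4) in Thra1PV/+ and 0.07 ± 0.27 (SD, n = 4) in WT libraries (exact permutation test, p = 0.0857). Col4a1 and Col4a2, which lie head to head on chromosome 8 and overlap by 22 bases, had log2 ratios of 0.60 ± 0.27 and 0.56 ± 0.05 (SD, n = 4 each). The ratio of Col6a1 to Col6a2 was likewise between -0.25 and 0.38 in all libraries. The X-linked pair Col4a5 and Col4a6 was looser in WT libraries, with log2 ratios of 0.25 to 2.27 against 0.65 to 0.92 in Thra1PV/+ libraries.

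**Figure D5:**
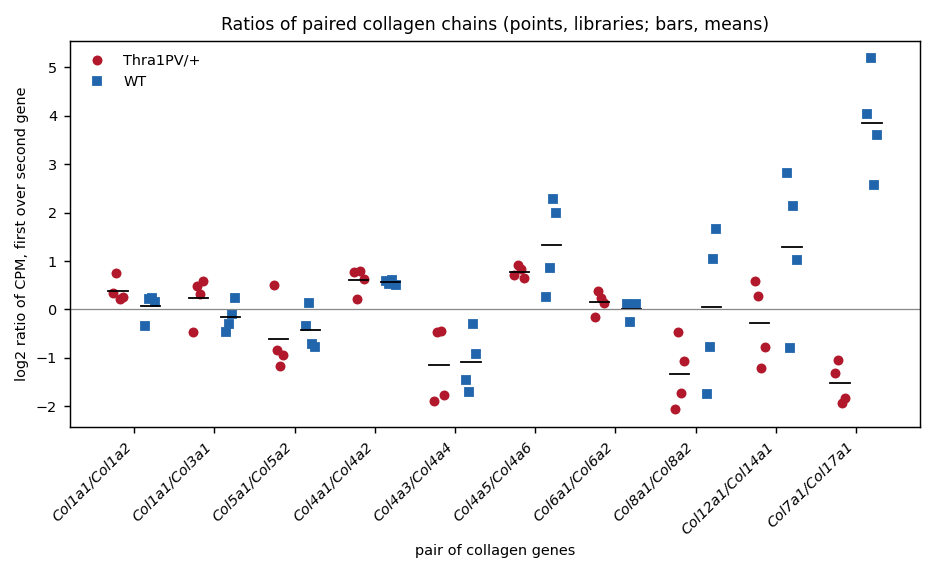
Log2 ratio of CPM of the first to the second gene (vertical axis) for 10 pairs of collagen genes in each Thra1PV/+ (circles) and WT (squares) library, with bars at the means. The genotypes overlap in 9 pairs and do not in Col7a1 over Col17a1, with values of -1.93 to -1.04 and 2.57 to 5.18.

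Of the 8 basement membrane collagens, all tested, none was called, and 7 had a negative log2 fold change. Col4a1, the commonest type IV chain, had 412, 73.3, 188 and 160 CPM in Thra1PV/+ and 467, 260, 182 and 198 CPM in WT libraries. Its genotypes overlapped, with a log2 fold change of -0.41 (standard error 0.52). Col18a1, a proteoglycan of the basement membrane whose C-terminal fragment is endostatin, had 328, 52.0, 95.9 and 75.8 CPM in Thra1PV/+ and 109, 252, 69.4 and 99.1 CPM in WT libraries. Its log2 fold change was 0.06 (standard error 0.63).

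Col15a1, which encodes a related proteoglycan that links basement membranes to fibrils, showed the largest negative difference of this class. Its levels were 28.8, 2.94, 7.23 and 5.32 CPM in Thra1PV/+ and 60.1, 158, 19.2 and 14.4 CPM in WT libraries. Thra1PV/+ library 1 lay above WT libraries 3 and 4, so that the genotypes overlapped. The log2 fold change was -2.50 (edgeR's adjusted p = 0.445, unadjusted p = 0.0307, standard error 0.96), and DESeq2 called it at an adjusted p-value of 0.0986. With the stroma covariate the log2 fold change was -1.31. Col4a3, a type IV chain best known from kidney and lung, had 2.17, 0.609, 0.817 and 0.648 CPM in Thra1PV/+ and 3.05, 4.26, 2.81 and 0.984 CPM in WT libraries (log2 fold change -1.39, edgeR's adjusted p = 0.493, standard error 0.58).

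The FACIT collagens had no called member among the 7 tested. Col16a1, the most abundant of them on the TPM scale, had 133, 24.3, 23.6 and 47.9 CPM in Thra1PV/+ and 216, 115, 33.8 and 36.6 CPM in WT libraries. Col12a1, which binds fibrils under tension, had 34.9, 11.5, 7.11 and 13.5 CPM in Thra1PV/+ and 113, 25.2, 8.69 and 19.3 CPM in WT libraries. The highest library of both genes was WT library 1, the one with 12986 CPM of smooth muscle markers, and their part in these levels was not tested. Without that library the log2 fold change of Col12a1 was -0.04 in place of -1.31. Col9a2, a chain of type IX collagen best known from cartilage, rested on WT library 2, which had 14.4 CPM. It had 0.318 to 2.52 CPM in WT libraries 1, 3 and 4 and 0.245 to 1.49 CPM in Thra1PV/+ libraries. Its log2 fold change was -2.64 (edgeR's adjusted p = 0.511, standard error 1.15), and without WT library 2 it was -0.74.

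The 3 transmembrane collagens other than Col17a1 were scarce, and none was called. Col23a1 had 17.8, 5.40, 3.92 and 5.38 CPM in Thra1PV/+ and 2.63, 6.64, 1.05 and 3.75 CPM in WT libraries, a log2 fold change of 1.20 (edgeR's adjusted p = 0.615, standard error 0.66). Col13a1 and Col25a1 were at no more than 2.83 and 1.14 CPM in any library. The network-forming and other collagens were also low. Col26a1 had 58.6 CPM in Thra1PV/+ library 1 and 3.49, 4.68 and 6.55 CPM in libraries 2 to 4, against 1.56, 7.40, 0.796 and 2.09 CPM in WT libraries. A single WT library, library 2, lay above the 3 lower mutant libraries, and without Thra1PV/+ library 1 the log2 fold change was 0.78. The log2 fold change was 2.63 (edgeR's adjusted p = 0.493, standard error 1.10), DESeq2 gave no adjusted p-value, and with the stroma covariate it was 3.26 with an adjusted p-value of 0.0347. Col8a2, a chain of type VIII collagen, had 19.9, 1.50, 4.78 and 7.50 CPM in Thra1PV/+ and 6.32, 3.16, 0.955 and 2.51 CPM in WT libraries (log2 fold change 1.38, standard error 0.80), and 2.21 with an adjusted p-value of 0.0482 with the covariate.

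The other 5 members were not tested because their counts were too low. Col2a1 and Col19a1 had at most 6 and 3 counts in any library. Col9a1 was at 0 counts in all but WT library 1, where it had 11. Col10a1 had at most 30 counts. Col28a1 had 302 counts, or 5.45 CPM, in WT library 2 and at most 0.459 CPM elsewhere. The transcripts of Col2a1, Col9a1 and Col10a1, which mark cartilage, were thus not detectable beyond these few counts.

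The genes that process collagen were examined in lists of folding and modification, trimming and crosslinking, receptors and breakdown. No gene of these lists was called by edgeR, of 19, 18, 9 and 9 tested, and the median log2 fold changes were -0.19, -0.57, -0.30 and -0.43. DESeq2 called 7 genes of the lists and 6 of them lower, where it called 3.64% of all genes with an adjusted p-value. That share is for either direction, and of its 793 calls 567 were higher in Thra1PV/+. The lists share a gene, so that 54 different genes of them were tested. At an unadjusted p-value under 0.05 edgeR had 10 of these genes, 1 higher and 9 lower. Of all tested genes, 5.05% were higher and 4.72% lower at that p-value. The smooth muscle markers had negative log2 fold changes as well, as given above. Without WT library 1 the lists had 6 such genes, 5 of them lower, where 3.53% of all tested genes were lower. The part of the muscle markers in these levels was not tested. Fmod, which encodes fibromodulin, a small proteoglycan that binds fibrils and steers crosslinking, came nearest to a call by edgeR. It had 36.0, 5.56, 8.75 and 8.27 CPM in Thra1PV/+ and 1.18, 1.86, 0.298 and 0.586 CPM in WT libraries. The genotypes did not overlap, with a log2 fold change of 3.89 (edgeR's adjusted p = 0.107, standard error 0.81), and it was called by DESeq2 (adjusted p = 5.54e-06) and with the stroma covariate (adjusted p = 0.000397). It was also called with the filter of at least 1 count in any library (adjusted p = 0.0883) and with limma on log2(TPM + 0.1) (adjusted p = 0.0472).

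Lox, the lysyl oxidase that starts crosslinking, had 66.9, 43.2, 69.9 and 64.5 CPM in Thra1PV/+ and 145, 70.1, 143 and 232 CPM in WT libraries. All mutant libraries lay below all WT libraries, though by little for WT library 2. Its log2 fold change was -1.27 (edgeR's adjusted p = 0.230, standard error 0.34), and DESeq2 called it lower on all libraries (adjusted p = 0.0377). Without WT library 2 the log2 fold change of edgeR was -1.48, and Lox was called (adjusted p = 0.0664). Dcn, the fibril-binding proteoglycan decorin, had 312, 20.3, 110 and 98.9 CPM in Thra1PV/+ and 1049, 725, 365 and 422 CPM in WT libraries, a log2 fold change of -2.24 (edgeR's adjusted p = 0.355, standard error 0.74). P4ha3, a prolyl hydroxylase chain, and Colgalt2, a collagen galactosyltransferase, were at most 0.409 and 1.14 CPM in Thra1PV/+ and at least 0.481 and 1.75 CPM in WT libraries. Itga1, the α chain of a collagen-binding integrin, and Mmp3, the protease stromelysin, had log2 fold changes of -1.72 and -3.68. Their adjusted p-values from edgeR were 0.273 and 0.444. DESeq2 called Dcn (adjusted p = 0.0459), P4ha3 (0.00704), Colgalt2 (0.0377), Itga1 (0.0308) and Mmp3 (0.0755), all lower in Thra1PV/+. Its log2 fold changes were -2.45 for P4ha3 and -1.83 for Colgalt2. In Itga1, Mmp3 and P4ha3 the highest library was WT library 1.

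The promoters of the 2 called genes and of Col7a1, which edgeR did not call, were read to show the bases before their RefSeq starts. They are from RefSeq (GRCm38.p6), which holds 35 of the 44 collagen genes. The 250 bases before each start are given on the strand of the gene. The windows of Col6a5 and Col7a1 adjoin the genes as GENCODE places them. For Col17a1 the RefSeq start differs, and the last bases of its window lie inside the GENCODE gene, which begins at 47692094. Capitals mark AGGTCA, the half-site that nuclear receptors such as the thyroid hormone receptors bind, searched on both strands.
Col17a1 promoter, chr19:47692043-47692292, minus strand: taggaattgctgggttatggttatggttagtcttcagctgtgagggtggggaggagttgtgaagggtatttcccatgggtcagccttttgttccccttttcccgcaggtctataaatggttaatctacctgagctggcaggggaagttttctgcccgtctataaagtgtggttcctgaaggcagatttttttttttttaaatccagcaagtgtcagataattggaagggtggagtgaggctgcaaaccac
Col6a5 promoter, chr9:105960644-105960893, minus strand: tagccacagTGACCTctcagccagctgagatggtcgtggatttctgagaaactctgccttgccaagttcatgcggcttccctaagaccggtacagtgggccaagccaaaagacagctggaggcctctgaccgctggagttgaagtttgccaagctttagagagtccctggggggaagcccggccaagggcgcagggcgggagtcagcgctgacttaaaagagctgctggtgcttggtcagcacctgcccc
Col7a1 promoter, chr9:108953336-108953585, plus strand: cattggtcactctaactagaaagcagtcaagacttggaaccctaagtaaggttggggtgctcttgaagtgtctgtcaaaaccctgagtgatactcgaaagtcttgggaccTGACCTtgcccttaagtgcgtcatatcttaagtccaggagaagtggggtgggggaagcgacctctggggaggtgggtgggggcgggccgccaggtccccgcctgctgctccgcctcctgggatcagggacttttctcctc
The half-site was found once in the Col6a5 window, beginning 241 bases before the start, and once in the Col7a1 window, 140 bases before the start, both on the opposite strand and so written TGACCT. It was not found in the Col17a1 window. Of all 32851 windows of this length 14.0% hold it. Of the 35 collagen genes, 8 hold it in any of their windows, a count by gene that is not in the unit of that share. The motif TGANTCA, which AP-1 factors bind, was in 6.75% of all windows, in that of Col6a1 and in none of these 3. A match is a run of letters and no evidence that a receptor binds there.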

How the data were processed

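The sources name stranded mRNA libraries, paired-end reads from an Illumina NextSeq, trimming with Trimmomatic, salmon for mouse genome mm10, and DESeq2. Tool versions and the annotation release are not given in the sources used here. The authors deposited estimated counts per gene, not normalized, and TPM values per gene. The sorted TPM values of the libraries differ by at most 0.291 TPM at any rank, as after quantile normalization. Of that table, 1 further column, headed as WT but matching no sample of the series, was not used.

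From the estimated counts, rounded to whole numbers, genes that passed filterByExpr (minimum count 10, minimum total 15) were normalized by TMM and tested by genotype with edgeR 4.0.16 (quasi-likelihood, Benjamini-Hochberg adjustment over 18174 genes). R was 4.3.3. Calls needed a difference of at least 2-fold and an adjusted p-value of at most 0.1. Standard errors were computed from the estimate and F. Log2 CPM used a prior count of 2. Chain ratios were compared by exact permutation over 70 arrangements. Identifiers without a symbol held at most 0.00897% of a library's counts. The library totals were 48791883 to 59819099 counts.

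Alternatives were DESeq2 1.42.0, other scalings and filters, the replicate block, limma 3.58.1 on log2 of the deposited TPM plus 1 or 0.1, each library left out, and other thresholds. The fits were tested on simulated data first. The members, classes, gene lists and tests were chosen with earlier results of these data known. Named are members called, those with an unadjusted p-value under 0.05, and the 2 of each class with the highest mean TPM. Col6a5, Col7a1 and Col17a1, the collagens the study measured by other methods, are named as well. Of the gene lists, called genes and up to 4 with the smallest p-values are named. Of the members outside this rule, Col6a6 and Col1a2, Col4a2, Col4a5, Col4a4, Col4a6, Col5a1, Col5a2, Col6a1, Col14a1 (in ratios), Col8a1, Col13a1, Col20a1, Col25a1 and the untested members were named after their values were seen. Gene positions and transcripts are from GENCODE release M21 (GRCm38). Libraries were stranded, but how strand was used in counting is not given in the sources used here. Overlapping genes on the other strand (as for Col15a1, Col12a1, Col18a1 and Col4a1) may share reads with these genes.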

Additional observations from a re-analysis of the deposited data

Results flagged for a closer look

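In 5 of 78 groups of 4 libraries, which are the 39 tested collagens in each genotype, a single library lay far from the other 3 by Dixon's ratio of its gap to the group's range of log2 CPM, taken above its 95% critical value. Chance gives about 1 in 20 groups, or 3.90 here. Col17a1 was highest in Thra1PV/+ library 3, with 221 CPM and a ratio of 0.871, although the 4 mutant libraries differed by only 1.38-fold. Col7a1 was highest in WT library 2, with 49.9 CPM and a ratio of 0.881, and this library decides whether edgeR calls the gene. Col4a5, an X-linked type IV chain, was highest in Thra1PV/+ library 1, with 106 CPM and a ratio of 0.926. Col8a1, a chain of type VIII collagen, was highest in WT library 4, with 8.06 CPM and a ratio of 0.935. Col20a1, a FACIT collagen, was highest in WT library 3, with 8.26 CPM and a ratio of 0.870. The causes were not tested.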

How the results depend on the processing

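With the thresholds used here 2 collagen genes were called. The number was 4 with DESeq2 (3 higher, 1 lower in Thra1PV/+) and 4, all higher, with the stroma covariate that was added after seeing the data. It was 1 with at least 1 count in any library as the filter, with limma on log2(TPM + 1) or log2(TPM + 0.1), and at an adjusted p-value of 0.05, and 7 at an unadjusted p-value under 0.05. Leaving out 1 library gave 1 to 2, both in all and in those called higher. With other scalings it stayed at 2. Col17a1 was called in all 17 alternatives, Col6a5 in 5 and Col7a1 in 2. Over 39 genes and 17 alternatives, 12 calls were lost, all of Col6a5, and 5 were gained. Of the pathway genes DESeq2 called 7, and leaving out 1 library 0 to 1 (Lox). The stroma covariate, the filter of at least 1 count in any library and limma on log2(TPM + 0.1) each called 1 (Fmod).

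The sign of the log2 fold change turned in 21 collagen genes in at least 1 alternative, none of them called there or above. With the stroma covariate it was 0.24 in Col16a1, 0.35 in Col1a1, 0.22 in Col3a1, 0.089 in Col4a1 and 0.32 in Col6a2. Col18a1 was at -0.13 and -0.14 with limma on the TPM values, and Col6a2 at 0.0046 with library size only. Leaving out 1 library gave -0.78 to 0.60 for Col18a1, -1.20 to 0.11 for Col1a1, -1.93 to 0.047 for Col3a1, -0.93 to 0.0060 for Col4a1, -1.98 to 0.36 for Col6a2 and -0.78 to 0.065 for Col6a4. The causes were not tested. The log2 ratio of Col7a1 to Col17a1 differed by -5.37 between genotypes, and by -3.60 on log2(TPM + 1). Leaving out 1 library gave 1 to 2 pairs of chains with a p-value under 0.05. The sign of the ratio difference turned in 3 pairs that did not pass the test. Without 1 library it was -0.55 to 0.0058 for Col5a1 over Col5a2, -0.018 to 0.17 for Col4a1 over Col4a2 and -0.28 to 0.21 for Col4a3 over Col4a4, which was at 0.16 on log2(TPM + 1).

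Replicate numbers 1 to 4 occur in both genotypes, but deviations of same-numbered libraries correlated at 0.27, -0.44, 0.34 and -0.16, so the numbers were not taken as pairs, and not every library correlated best with its own number. With the replicate block 1 collagen gene was called, which was higher (Col17a1), 82 genes were called in all in place of 180, and Col18a1 was at -0.11. Precision is limited by 4 libraries a genotype, by their spread and, for the 5 untested and other sparse collagens, by depth. These limits were not ranked.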
